A study of Mus musculus with 6 samples.

Results

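Lpl, Spp1, Mmp19, Ccl9, Itgax, Mrc1, C3ar1, Alox5, Csf2rb2 and Lilrb4b are 10 genes that macrophages and other myeloid cells express, measured here in sorted induced regulatory T cells (iTregs). They were taken by symbol, and each of the 10 was found once among the 21899 genes listed in the count and TPM tables. They had been selected on their higher counts in Dlst-deleted (KO) than in control (WT) samples of this same series, so their KO over WT differences are given as a description, with no test. KO cells came from mice labelled Dlst-Treg iKO (3 samples), an inducible deletion in Treg cells of Dlst, which encodes a subunit of the TCA cycle enzyme 2-oxoglutarate dehydrogenase. WT cells came from mice labelled iWT (3 samples). In both groups spleen CD4+ T cells were kept for 2 days under conditions that induce Treg cells, with 4-hydroxytamoxifen, which activates tamoxifen-inducible Cre. CD4+ FoxP3-GFP+ tdTomato+ cells were then sorted for bulk mRNA sequencing. The sources used here give neither the age of the mice nor the promoter that drives Cre, and the labels do not say which samples came from separate mice, so p-values cover the spread between these samples, which may be technical.

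Libraries held 33590510 to 49772670 estimated counts. Levels are given as CPM, counts scaled by library size. Dlst stood at 125, 129 and 129 CPM in KO, against 161, 149 and 149 CPM in WT, 0.834-fold between means. The groups did not overlap, but Dlst did not pass edgeR's test (log2 fold change -0.26, SE 0.05, Benjamini-Hochberg adjusted p = 0.0894). Foxp3 was at 222 ± 13.2 CPM in KO and 185 ± 26.5 CPM in WT (SD, n = 3 each). KO replicate 1 and WT replicate 1 each stood apart from the rest of their group, with a biological coefficient of variation of 12.5 to 14.3% against the other KO libraries and 14.4 to 14.8% against the other WT libraries. It was 2.97% between KO replicates 2 and 3 and 7.12% between WT replicates 2 and 3. The Y-linked Ddx3y was at 80.8 CPM in KO replicate 1 and at no more than 0.026 CPM in the other 5, so that library held male cells, from another mouse than the rest, and sex was not balanced between the groups. Neutrophil markers summed to 325 CPM there against 82.7 and 80.5 CPM in KO replicates 2 and 3. WT replicate 1 was at 154 CPM for Foxp3, against 202 and 198 CPM in WT replicates 2 and 3. Values without KO replicate 1 are given below. Differences between bulk samples do not tell more myeloid cells from more RNA per cell.

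Macrophages take up and digest lipoproteins, dead cells and glycoproteins, sense complement and growth factors, and release chemokines, proteases and lipid mediators. Lipoprotein lipase frees fatty acids from triglyceride, 5-lipoxygenase makes the precursor of leukotrienes, and osteopontin is a secreted ligand of integrins and CD44. Several of the 10 genes are not confined to macrophages: activated T cells can make osteopontin, and CD11c, the product of Itgax, is the classical marker of dendritic cells.

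The stretches just upstream of 4 of the genes are shown, each picked because it holds a motif searched for here. Any part of these motifs in the levels was not tested. RefSeq (GRCm38.p6) promoter sequence was matched for 8 of the 10 genes, and the 250 bases before each annotated start were searched on both strands. Capitals mark GAGGAA (reverse TTCCTC, bound by PU.1 and other ETS factors), TGANTCA (AP-1 type, with any middle base), TTGCNNAA (C/EBP type) and CACGTG (E-box of the MiT/TFE type). Spp1 is chr5:104434861-104435110, plus strand, the first of 2 annotated starts. Itgax is chr7:128129300-128129549, plus strand. C3ar1 is chr6:122856158-122856407 and Ccl9 is chr11:83578637-83578886, both minus strand and written in the sense of the gene.
Spp1: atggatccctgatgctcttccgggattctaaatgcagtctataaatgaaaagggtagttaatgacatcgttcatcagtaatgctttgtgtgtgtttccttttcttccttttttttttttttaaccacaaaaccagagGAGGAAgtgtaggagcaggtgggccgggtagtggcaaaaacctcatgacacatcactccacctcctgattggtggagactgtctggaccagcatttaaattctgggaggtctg
Itgax: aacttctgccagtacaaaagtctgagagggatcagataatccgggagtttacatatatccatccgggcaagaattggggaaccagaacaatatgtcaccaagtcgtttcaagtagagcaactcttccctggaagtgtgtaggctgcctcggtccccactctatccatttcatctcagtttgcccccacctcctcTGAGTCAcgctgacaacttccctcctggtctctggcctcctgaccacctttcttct
C3ar1: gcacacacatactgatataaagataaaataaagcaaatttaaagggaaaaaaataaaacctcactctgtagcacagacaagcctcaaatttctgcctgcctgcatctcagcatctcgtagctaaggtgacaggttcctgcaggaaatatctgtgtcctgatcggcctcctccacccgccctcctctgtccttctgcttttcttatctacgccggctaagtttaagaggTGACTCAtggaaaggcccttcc
Ccl9: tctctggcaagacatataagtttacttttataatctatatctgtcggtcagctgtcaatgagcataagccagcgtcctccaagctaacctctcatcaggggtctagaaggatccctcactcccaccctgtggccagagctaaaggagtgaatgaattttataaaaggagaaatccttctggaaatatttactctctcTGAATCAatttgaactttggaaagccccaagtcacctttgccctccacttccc

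The letters TGANTCA lay 56 bases before the start of Itgax, 22 before that of C3ar1 and 53 before that of Ccl9, counted to the first base. They read TGAGTCA in Itgax, TGACTCA in C3ar1 and TGAATCA in Ccl9. The usual AP-1 site has G or C in the middle, so the match in Ccl9 is not that site. These 3 of 8 genes, matched at any middle base, compare with 6.75% of all 32851 RefSeq promoter windows of the same length. The units differ: the 8 genes were counted over all their starts, and Spp1 has a second, whereas the share is counted per window. GAGGAA stood in 4 of 8 genes, Spp1, Mrc1, Alox5 and Csf2rb2, against 23.3% of all windows, and Mrc1 held it 3 times. TTGCNNAA was found in 1 of 8, at the second start of Spp1, against 9.56% of all windows, and CACGTG in 0 of 8 against 6.02%. Lilrb4b held none of these motifs. The motifs found are matches of letters, not measured binding sites.

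All 10 genes were higher in every KO library than in every WT library, a pattern found for 11.9% of the 12768 genes tested. All 10 also had a Benjamini-Hochberg adjusted p under 0.05 in edgeR's test, where 0.454% of tested genes were called higher, 0.219% lower and 0.674% either way. Both counts restate how the genes were picked, and nothing is read from them. With 1 library left out edgeR called between 0 of the 10, without KO replicate 3, and 8, without KO replicate 1 (all 10 at an unadjusted p under 0.05 in both, and 10 called by DESeq2 on all 6 libraries, which follows from the choice too). The median log2 fold change (KO minus WT) was 2.13, against -0.00 for all genes tested. It was 1.84 without KO replicate 1, 2.26 without KO replicate 2, 2.19 without KO replicate 3 and 2.05 to 2.21 without a WT library. C3ar1 and Mmp19 were below the level of the filter on low counts (0.234 CPM) in all 3 WT libraries, and Mrc1 was above it in 1 of them, so these 3 genes entered the fit through their KO libraries.

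**Figure D1:**
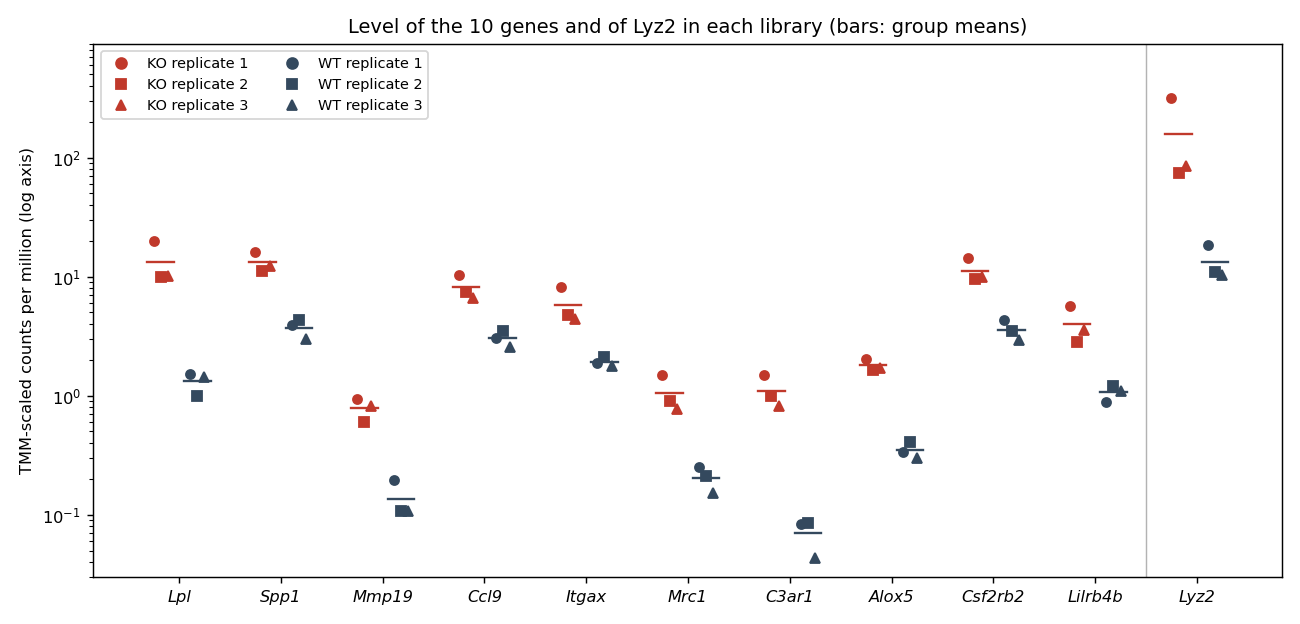
TMM-scaled CPM (log axis) of the 10 genes and of Lyz2 in the 3 KO (red, left) and 3 WT (dark, right) libraries, with symbols for the replicates and bars for group means. For each of the 10 genes and for Lyz2 all KO libraries lie above all WT libraries, and KO replicate 1 is the highest of the 6.

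Per length, the highest of the 10 was Spp1, at 16.2 ± 3.43 TPM in KO and 4.57 ± 0.787 TPM in WT (SD, n = 3 each). In KO it was followed by Lpl at a mean of 5.91 TPM, Lilrb4b at 5.24, Ccl9 at 4.69, Csf2rb2 at 4.33 and Itgax at 2.52 TPM, and neighbours from Lpl to Itgax in this order overlapped in range. Alox5 at 1.23 TPM lay apart from both neighbours, above C3ar1 at 0.445, Mmp19 at 0.400 and Mrc1 at 0.339 TPM, which overlapped from one to the next. In WT the order differed mainly in Lpl, which was second in KO and sixth in WT. Together the 10 genes summed to 54.2, 33.8 and 36.0 TPM in KO, against 11.7, 12.0 and 9.71 TPM in WT. Lyz2 alone was at 419, 98.4 and 111 TPM in KO and at 24.5, 14.1 and 13.8 TPM in WT.

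Of the enzymes, Lpl (ENSMUSG00000015568, plus strand of chromosome 8, 68880491 to 68907448 in GENCODE M21, GRCm38) had the highest CPM in KO. Its level was 19.8, 9.92 and 10.0 CPM in KO, against 1.53, 1.00 and 1.44 CPM in WT. The lowest KO library was 6.49-fold above the highest WT library, and the means were 13.3 ± 5.69 CPM in KO and 1.32 ± 0.282 CPM in WT, 10.0-fold apart. Alox5 (chromosome 6, 116410077 to 116461178, minus strand), which encodes 5-lipoxygenase, was at 2.04, 1.64 and 1.70 CPM in KO, against 0.333, 0.405 and 0.301 CPM in WT. The KO libraries lay close together, with KO replicate 1 at 1.22-fold the mean of KO replicates 2 and 3, and KO over WT was 5.17-fold. Mmp19, a secreted matrix metalloproteinase gene (chromosome 10, 128790910 to 128800824, plus strand), had 99 counts over the KO libraries and 17 over the WT libraries. Its CPM were 0.938, 0.597 and 0.824 in KO and 0.194, 0.107 and 0.108 in WT. Per library size this is 6.16-fold (exact Poisson 95% interval 3.66 to 10.99, counting error only). Mmp19 overlaps Tmem198b on the other strand, whose level was 8.15 ± 0.633 CPM in KO and 8.69 ± 0.913 CPM in WT with overlapping groups, and no source used here says whether reads were counted by strand.

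Of the secreted ligands, Spp1, osteopontin (chromosome 5, 104435118 to 104441050, plus strand), was at 16.1, 11.1 and 12.3 CPM in KO, against 3.91, 4.28 and 2.97 CPM in WT. The groups lay apart, with a mean of 13.2 ± 2.65 CPM in KO and 3.72 ± 0.677 CPM in WT, 3.53-fold. All Spp1 counts were whole numbers. Ccl9, a mouse CC chemokine that acts on the receptor Ccr1 (chromosome 11, 83572919 to 83578636, minus strand), was at 10.3, 7.44 and 6.67 CPM in KO, against 3.03, 3.52 and 2.58 CPM in WT. Ccl9 had the smallest difference of the 10, 2.67-fold between means and 1.90-fold between the lowest KO and the highest WT library.

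Of the receptors, C3ar1, the G protein-coupled receptor of complement fragment C3a (chromosome 6, 122847138 to 122856161, minus strand), had the largest relative difference and very few WT reads. It had 75, 33 and 32 counts in KO libraries and 3, 4 and 2 counts in WT libraries. The level was 1.10 ± 0.352 CPM in KO and 0.071 ± 0.024 CPM in WT (SD, n = 3 each), and the summed counts per library size differed 16.4-fold (exact Poisson 95% interval 8.42 to 36.7, counting error only). Mrc1, the mannose receptor CD206 that internalises glycoproteins (chromosome 2, 14229392 to 14332057, plus strand), had 74, 30 and 30 counts in KO, against 9, 10 and 7 in WT. This is 1.48, 0.896 and 0.772 CPM in KO and 0.250, 0.213 and 0.151 CPM in WT, with a ratio of summed counts of 5.45 (3.56 to 8.64). Itgax (chromosome 7, 128129547 to 128150657, plus strand), the integrin alpha chain that pairs with Itgb2, was at 8.20, 4.78 and 4.40 CPM in KO and at 1.89, 2.11 and 1.76 CPM in WT. KO replicate 1 was high for Itgax, 1.79-fold above the other KO libraries, which were still 2.39-fold above the WT mean.

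The 2 remaining receptors have a close paralog beside them in the genome, and their counts are less certain. Csf2rb2 (chromosome 15, 78282507 to 78305721, minus strand) encodes a beta chain that mice, and not humans, have for the IL-3 receptor, and lies 20030 bp from Csf2rb, the common beta chain of the GM-CSF, IL-3 and IL-5 receptors. Csf2rb2 was at 14.2, 9.53 and 9.86 CPM in KO, against 4.36, 3.47 and 2.95 CPM in WT. Csf2rb was at 31.0, 13.9 and 16.8 CPM in KO, against 7.86, 6.97 and 5.45 CPM in WT, so both genes had groups that did not overlap. Lilrb4b (named Lilr4b in GENCODE M21, chromosome 10, 51480632 to 51486703, plus strand), a mouse immunoglobulin-like receptor without the inhibitory motifs of its neighbour Lilrb4a, was at 5.63, 2.81 and 3.58 CPM in KO, against 0.888, 1.21 and 1.10 CPM in WT. Lilrb4a was at 14.7, 5.41 and 4.79 CPM in KO, against 2.30, 3.05 and 2.26 CPM in WT.

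Sequence shared with other genes differed widely among the 10. Of all 50-base stretches in the annotated transcripts of Lilrb4b, 24.5% also occur in transcripts of another gene, mainly Lilrb4a, and for Csf2rb2 the share is 18.9%, mainly Csf2rb. It is 11.6% for Spp1 (all in the unverified gene Gm42793, on the same strand), 8.02% for Itgax (all in Itgad), 1.97% for Ccl9 and 1.14% for Lpl. For Mmp19, Mrc1, C3ar1 and Alox5 no such stretch was shared. Itgad was at 0.105 ± 0.091 CPM in KO and 0.0997 ± 0.154 CPM in WT, far below Itgax. Gm49339, a protein-coding gene of the annotation that overlaps both Lilrb4b and Lilrb4a, was at 8.40, 3.23 and 3.50 CPM in KO and 2.03, 1.75 and 1.74 CPM in WT. Counts of 6 of the 10 genes were not always whole numbers, those of Lpl, Mmp19, Ccl9, Itgax, Csf2rb2 and Lilrb4b.

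Lyz2, the lysozyme gene of monocytes, macrophages and neutrophils, was at 316, 74.7 and 84.4 CPM in KO, against 18.4, 10.9 and 10.4 CPM in WT. It did not pass edgeR's test (log2 fold change 3.60, SE 0.69, adjusted p = 0.105). With KO replicate 1 left out it was at 2.60 and passed (edgeR adjusted p = 0.016, where the alternatives ranged from 6.87e-06 to 0.312). The KO libraries were far more unequal for Lyz2 than for the 10 genes. KO replicate 1 was 3.98-fold the mean of KO replicates 2 and 3 for Lyz2, and from 1.22-fold for Alox5 to 1.99-fold for Lpl among the 10, with a median of 1.56-fold. That test favours genes with little spread within a group. The 10 genes passed it and Lyz2 did not, so this contrast follows in part from the choice. Of the lists below, monocyte and macrophage identity genes had a median ratio of 2.70-fold and lipid-associated macrophage genes 1.53-fold. KO replicate 1 was the highest KO library for all 10, which 43.1% of tested genes share, and the highest of all 6 libraries, which 27.9% share, and a ratio at least as high as that of Alox5 was found for 16.4% of tested genes.

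Between KO replicates 2 and 3 and the WT mean, Lyz2 differed 6.02-fold. C3ar1, at 12.8-fold, and Lpl, at 7.54-fold, were above that, and the other 8 genes lay between 2.32-fold for Ccl9 and 5.22-fold for Mmp19. With all 3 KO libraries, Lyz2 differed 12.0-fold, and only C3ar1, at 15.6-fold, was above it. Among WT libraries Lyz2 was highest in WT replicate 1, 1.74-fold above the mean of the other 2, while 4 of the 10 genes were highest there.

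**Figure D2:**
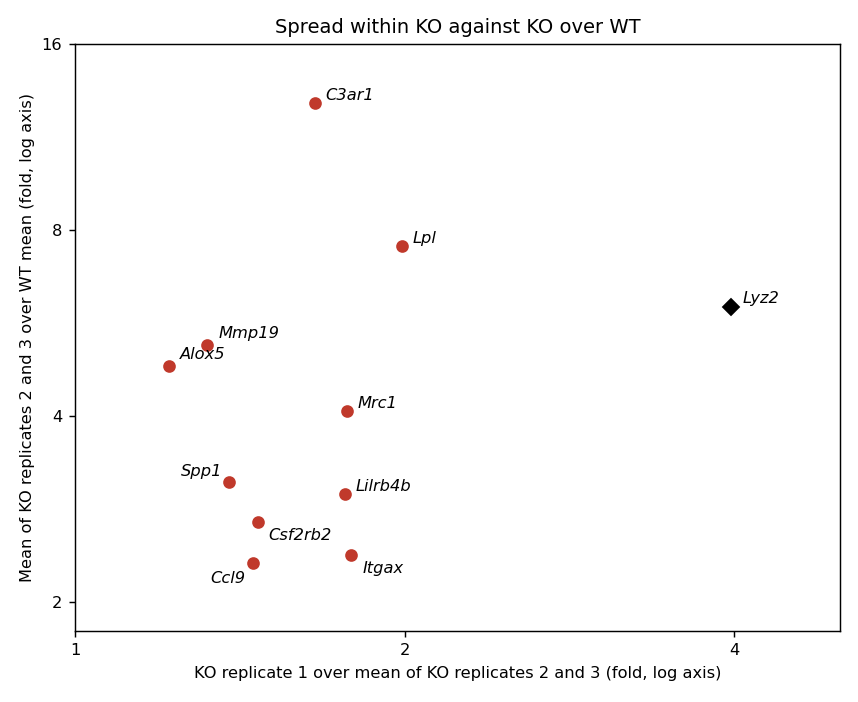
For each of the 10 genes (red circles) and Lyz2 (black diamond), KO replicate 1 over the mean of KO replicates 2 and 3 (x, fold, log axis) against the mean of KO replicates 2 and 3 over the WT mean (y, fold, log axis), both from CPM. Lyz2 lies at 3.98 on the x axis, to the right of all 10 genes (1.22 to 1.99), while C3ar1 and Lpl lie above it on the y axis. Lyz2 did not pass the test that the 10 genes passed, so the contrast on the x axis follows in part from the choice.

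Set against Lyz2 within each library, most of the 10 genes were lower in KO. The 10 genes summed to 25.4%, 66.5% and 60.3% of the Lyz2 CPM in KO, against 89.3%, 151% and 130% in WT. Of the 10 ratios to Lyz2, 9 were lower on average in KO and 1, that of C3ar1, was higher, and for 7 the KO and WT libraries did not overlap. Lyz2 itself was 12.0-fold higher in KO, with groups that did not overlap. A gene at the same level in all libraries would thus also have a lower ratio in KO, without overlap. The share of all tested genes with such ratios was not computed, and nothing is read from these counts. Relative to Lyz2, Ccl9 was at 3.24%, 9.96% and 7.90% in KO, against 16.4%, 32.4% and 24.9% in WT, the most negative log2 difference of the 10, at -1.90. Lpl had close mean ratios in both groups, with 6.27%, 13.3% and 11.9% in KO, against 8.28%, 9.22% and 13.9% in WT, a log2 difference of -0.03 with overlapping groups. C3ar1 was at 0.473%, 1.32% and 0.976% in KO and at 0.452%, 0.784% and 0.416% in WT. The median log2 difference of the 10 ratios was -1.21, or -0.78 without KO replicate 1, where the ratios of C3ar1 and Lpl were higher and the other 8 lower than in WT.

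**Figure D3:**
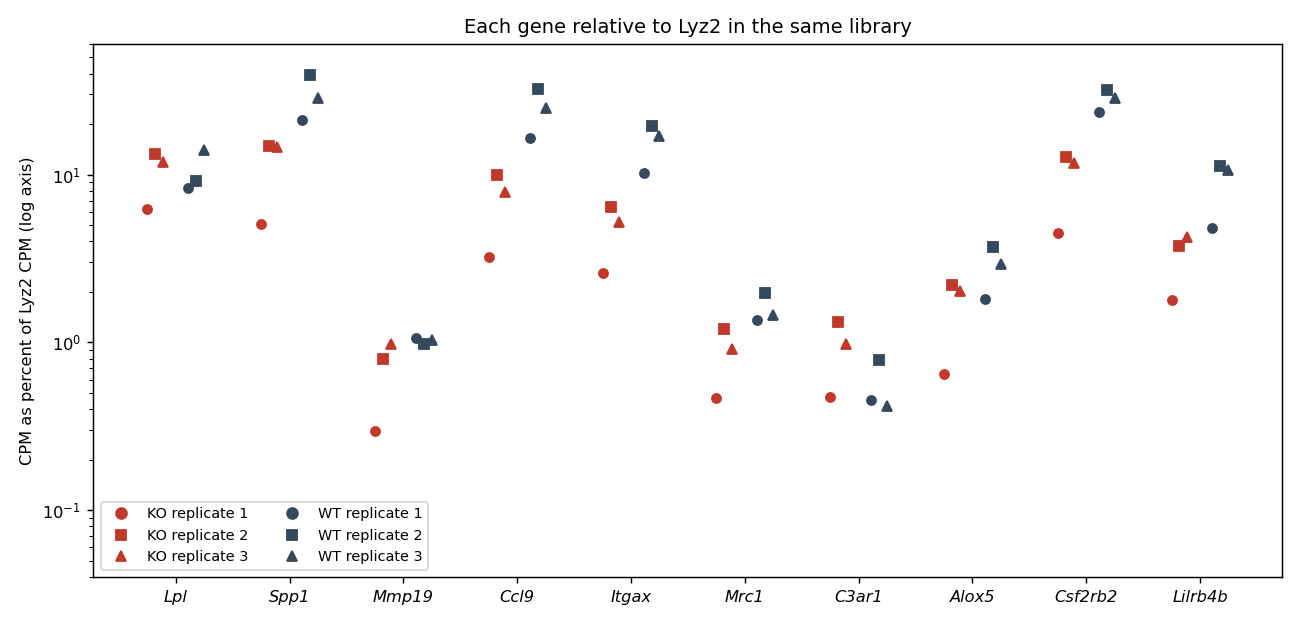
CPM of each of the 10 genes as a percent of Lyz2 CPM in the same library (log axis), for the 3 KO (red, left) and 3 WT (dark, right) libraries. KO replicate 1 (red circles), where Lyz2 itself is highest, is the lowest of the 6 for 9 of the 10 genes. For C3ar1 the lowest library is WT replicate 3.

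The other genes of the pathways in which the 10 take part were read from the same fit. Over these and the marker lists below, 163 genes besides the 10 were tested, of which 3 were called higher and 1 lower in KO. Of the 163, 73 had an unadjusted p under 0.05 by edgeR, and the median log2 fold change was 0.33. Among all 12768 genes tested, 15.1% had an unadjusted p under 0.05. DESeq2 called 365 genes higher and 159 lower over the whole table. The counts of each list below are to be read beside these values. Called higher were Clec7a, Mmp8 and Prss34, and called lower was Ikzf2. Mmp8 and Prss34 were below the filter level (0.234 CPM) in all 3 WT libraries, so they entered the fit through their KO libraries. The same holds for Trem2, Mertk and Cysltr2, whose values are given below. Without KO replicate 2, KO replicate 3, WT replicate 2 or WT replicate 3 edgeR called 0 of the list genes, with 69 to 78 at an unadjusted p under 0.05. Lyz2, Ccl6, Gpnmb, Csf2rb, Tyrobp and Prss34 were the 6 called higher without KO replicate 1. Lists overlap in 14 genes, such as Itgam and Mmp8.

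Genes that act with lipoprotein lipase were not called. Of 18 tested genes for its maturation, its inhibitors and fatty acid and lipoprotein handling, 0 passed edgeR's test (2 at an unadjusted p under 0.05, and 0 by DESeq2), and their median lay at 0.02 on the log2 scale. The lipid droplet coat gene Plin2 stood at 0.54 (SE 0.19, adjusted p = 0.264 by edgeR), and Lipa, lysosomal acid lipase, at 0.23 (SE 0.09, adjusted p = 0.304). Gpihbp1, which carries the lipase across endothelium, was listed at 0 in all 6 libraries. Receptors of osteopontin had a median of -0.00 over 8 tested genes, with 0 called (1 at an unadjusted p under 0.05, and 1 by DESeq2). The integrin gene Itga4 was at 83.1 ± 15.5 CPM in KO and 51.4 ± 3.30 CPM in WT (log2 fold change 0.69, SE 0.13, edgeR adjusted p = 0.0818).

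Genes beside 5-lipoxygenase differed in their values. In the leukotriene list 0 of 10 tested genes passed (3 at an unadjusted p under 0.05, and 1 by DESeq2), with a median of 0.29. Alox5ap, the membrane protein that presents arachidonic acid to 5-lipoxygenase, was at 7.27, 2.63 and 3.55 CPM in KO and at 1.19, 1.19 and 0.926 CPM in WT, which is 2.03 on the log2 scale (SE 0.39, edgeR adjusted p = 0.0784). Lta4h, which makes leukotriene B4, was at -0.00 (SE 0.05), and Cysltr2, a leukotriene receptor, at 2.40 (SE 0.60, edgeR adjusted p = 0.144).

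Among matrix metalloproteinases and inhibitors, 1 of 12 tested genes rose and 0 fell (7 at an unadjusted p under 0.05, and 4 by DESeq2), with a median of 0.79. It was Mmp8, neutrophil collagenase, with 1.20 ± 0.418 CPM in KO and 0.131 ± 0.090 CPM in WT (log2 fold change 3.12, SE 0.51, edgeR adjusted p = 0.0487). Without KO replicate 1 its log2 fold change was 2.79 and it did not pass (adjusted p = 0.0993). Mmp8 also stands in the list of neutrophil markers, which summed to 325, 82.7 and 80.5 CPM in KO, against 36.4, 9.61 and 6.41 CPM in WT, and their part in this result was not tested.

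In the list of CC chemokines and receptors 0 of 8 passed (2 at an unadjusted p under 0.05, and 3 by DESeq2). Ccl6, a mouse chemokine close to Ccl9, was at 47.0, 15.9 and 16.1 CPM in KO, against 4.30, 2.11 and 2.17 CPM in WT (log2 fold change 3.23, SE 0.57, edgeR adjusted p = 0.0894). With KO replicate 1 left out it passed, at 2.50 (edgeR adjusted p = 0.0302, where the alternatives ranged from 2.12e-05 to 0.258). Its receptor Ccr1 was at 1.61 (SE 0.48, adjusted p = 0.192 by edgeR).

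Among C-type lectins 1 of 7 tested genes rose and 0 fell (5 at an unadjusted p under 0.05, and 4 by DESeq2), with a median of 1.87, or 1.02 without KO replicate 1. Clec7a, the beta-glucan receptor Dectin-1, was at 5.05, 3.55 and 2.78 CPM in KO, against 1.22, 0.980 and 0.753 CPM in WT (1.96 on the log2 scale, SE 0.29, edgeR adjusted p = 0.0337). Clec7a did not pass without KO replicate 1 (1.69, adjusted p = 0.0561). Mrc2, the paralog of Mrc1, overlapped between groups at 0.834 ± 0.248 CPM in KO and 1.49 ± 0.627 CPM in WT. Of the beta-2 integrins and their partners 0 of 6 passed (3 at an unadjusted p under 0.05, and 1 by DESeq2). Itgam, CD11b, was at 27.2, 9.02 and 9.60 CPM in KO and 3.53, 1.34 and 1.03 CPM in WT (2.99, SE 0.66, edgeR adjusted p = 0.139), while Icam1, a ligand, was at -0.24 (SE 0.09, adjusted p = 0.265).

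In the complement list 0 of 9 passed (4 at an unadjusted p under 0.05, and 2 by DESeq2). C5ar1, the receptor of C5a, was at 3.73, 1.01 and 1.00 CPM in KO and 0.416, 0.064 and 0.086 CPM in WT (log2 fold change 3.44, SE 0.83, edgeR adjusted p = 0.144). In the beta common receptor pathway 0 of 10 passed (2 at an unadjusted p under 0.05, and 1 by DESeq2), with a median of 0.07. Csf2rb was at 1.61 (SE 0.32, edgeR adjusted p = 0.103), or 1.19 without KO replicate 1, where it passed (adjusted p = 0.0446), and Il3ra, the IL-3 binding chain, at -0.37 (SE 0.10, adjusted p = 0.161). Of the LILR and PIR receptors and adaptors 0 of 7 passed (5 at an unadjusted p under 0.05, and 4 by DESeq2), with a median of 1.71, or 1.00 without KO replicate 1. Fcer1g, the signalling adaptor of many of them, was at 2.35 (SE 0.44, edgeR adjusted p = 0.0832) and the activating receptor gene Pira2 at 2.30 (SE 0.61, adjusted p = 0.164).

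**Figure D4:**
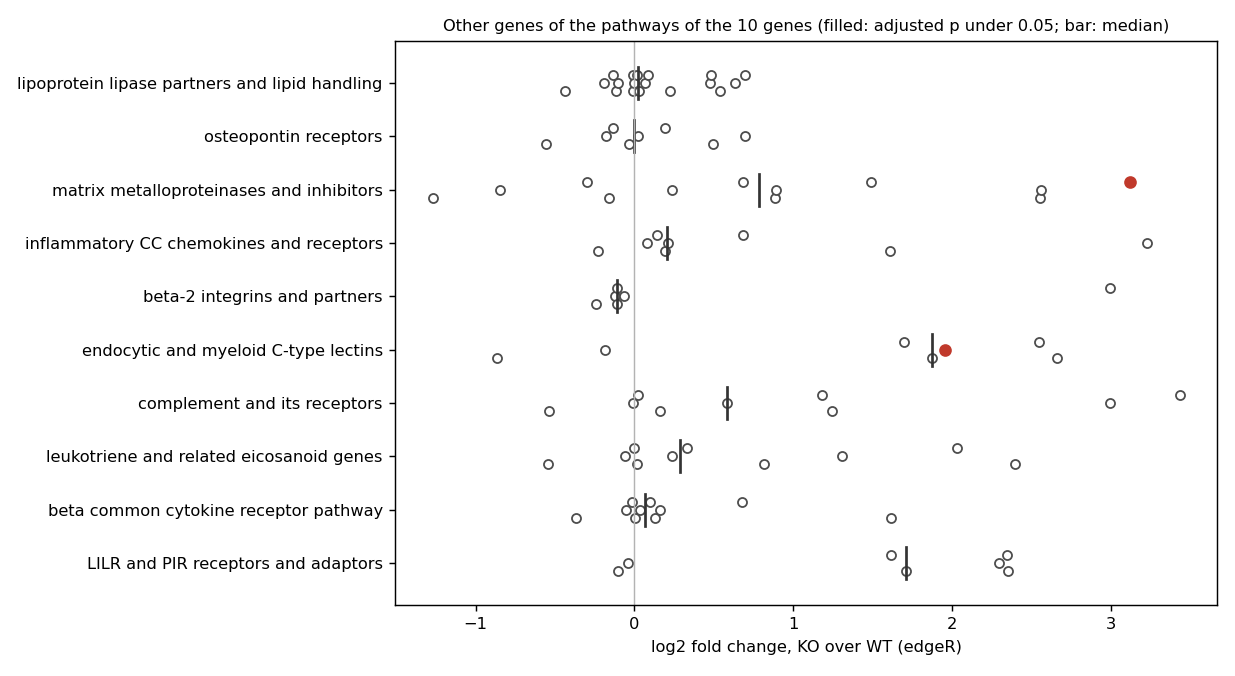
log2 fold change (KO over WT, edgeR) of the tested genes in 10 pathway lists, the 10 genes themselves left out. Filled points passed an adjusted p of 0.05 (Mmp8 and Clec7a), open points did not, and bars are list medians, which run from -0.11 for beta-2 integrins to 1.87 for C-type lectins.

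Markers of cell types that the sort could still hold differed in level between the libraries. Monocyte and macrophage identity genes summed to 437, 149 and 158 CPM in KO, against 61.3, 78.1 and 73.9 CPM in WT, and 13 of them were tested. Lyz2 made up 13.9 to 72.4% of the sum, and without it the sum was 121, 74.1 and 73.3 CPM in KO, against 42.9, 67.3 and 63.6 CPM in WT. Most of this remainder in WT was Cx3cr1, at 30.8, 39.7 and 35.2 CPM in KO, against 23.6, 50.7 and 50.0 CPM in WT. Cx3cr1 (log2 fold change -0.24) and Ccr2 (0.19) overlapped between the groups. The other 11 tested genes were higher in every KO than in every WT library, as were 11.9% of all genes tested. The median of the 13 was 1.76 on the log2 scale, or 0.96 without KO replicate 1. None of the 13 passed edgeR's test (11 at an unadjusted p under 0.05, and 8 by DESeq2). Tyrobp, a signalling adaptor of myeloid receptors, was at 2.71 (SE 0.50, edgeR adjusted p = 0.0818) and Mertk, a receptor for dead cells, at 2.95 (SE 0.63, adjusted p = 0.0978). The 10 genes were higher in the same libraries, and the part of these cells in their levels was not tested.

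Markers of resident macrophages differed from gene to gene. They summed to 99.1, 113 and 111 CPM in KO, against 99.0, 125 and 116 CPM in WT, with overlapping groups, but Stab1, a scavenger receptor that endothelium also makes, was 71.8 to 91.6% of this. Without Stab1 they summed to 28.0, 21.2 and 21.5 CPM in KO, against 27.8, 12.5 and 9.75 CPM in WT, still overlapping. None of 7 tested genes passed edgeR's test (2 at an unadjusted p under 0.05, and 1 by DESeq2), and their median was 0.36. Msr1, another scavenger receptor, had groups that did not overlap, at 2.63 ± 1.85 CPM in KO and 0.406 ± 0.224 CPM in WT (2.73 on the log2 scale, SE 0.61, edgeR adjusted p = 0.122). Cd5l, a secreted macrophage protein, was at 1.55 (SE 0.55, adjusted p = 0.252). Siglec1 was at 1.18 ± 0.135 CPM in KO and 1.11 ± 0.499 CPM in WT, Cd163 at 0.995 ± 0.416 CPM in KO and 0.968 ± 0.158 CPM in WT, and Apoe at 17.2 ± 2.54 CPM in KO and 13.5 ± 8.41 CPM in WT, each with overlapping groups. The other 8 of the 15 listed genes had too few counts to be tested. Vsig4 and Clec4f, markers of Kupffer cells and other resident macrophages, were listed at 0 in all 6 libraries. Timd4 had 2 counts over the KO libraries and 0 over the WT libraries, Folr2 had 3 and 3, Lyve1 0 and 2, C1qa 31 and 12, C1qb 24 and 13 and C1qc 13 and 10. Resident macrophage markers were thus in part expressed and in part at or near 0. Of the 7 tested, 1, Msr1, was higher in every KO than in every WT library, near the 11.9% of all genes tested. The 10 genes are called by their symbols here, since the list does not settle the name tissue macrophage.

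Of the lipid-associated macrophage list, which summed to 290, 188 and 195 CPM in KO, against 127, 135 and 143 CPM in WT, 0 of 12 tested genes passed (10 at an unadjusted p under 0.05, and 8 by DESeq2), with a median of 1.24. Trem2, a lipid-sensing receptor, had 53, 11 and 21 counts in KO and 1, 2 and 0 in WT. Summed, these are 85 and 3, a ratio per library size of 30.0 (exact Poisson 95% interval 9.91 to 148, counting error only). Its edgeR adjusted p was 0.051, or 0.0914 without KO replicate 1, where its log2 fold change was 4.07. The cathepsin gene Ctsk was at 2.29 (SE 0.44, adjusted p = 0.076 by edgeR), and Gpnmb passed without KO replicate 1 (1.76, edgeR adjusted p = 0.0335, where the alternatives ranged from 0.000966 to 0.296).

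Neutrophil markers had a median of 3.33 over 12 tested genes, or 2.36 without KO replicate 1. Mmp8 was the 1 that edgeR called, while 11 had an unadjusted p under 0.05 and 9 were called by DESeq2. Of the 12, 11 were higher in every KO than in every WT library, as were 11.9% of all genes tested. In the list of mast cell, basophil and eosinophil genes, summing to 18.3, 24.0 and 21.8 CPM in KO, against 7.94, 9.72 and 9.82 CPM in WT, edgeR called 1 of 10 higher (6 at an unadjusted p under 0.05, and 4 by DESeq2). Their median was 1.52 on the log2 scale, or 1.54 without KO replicate 1. Prss34, a basophil and mast cell protease, had 117 counts in KO and 9 in WT, with a log2 fold change of 3.76 (SE 0.46, edgeR adjusted p = 0.0193), and passed without KO replicate 1 (3.93, adjusted p = 0.0302). Dendritic cell markers had a median of -0.02 over 8 tested genes and summed to 1154, 1208 and 1161 CPM in KO, against 1138, 1278 and 1176 CPM in WT. Irf8, which lymphocytes also express, was 76.8 to 93.2% of this sum, and without it the sum was 126, 110 and 114 CPM in KO, against 264, 130 and 80.3 CPM in WT. None of the 8 passed (1 at an unadjusted p under 0.05, and 0 by DESeq2), with Batf3 at 0.41 (edgeR adjusted p = 0.283) and Cd74, which B cells also express, at -0.50 (edgeR adjusted p = 0.601).

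B cell markers summed to 190.5, 156 and 162 CPM in KO, against 282, 163 and 118 CPM in WT, with Ighm at 66.5 to 87.5% of the sum, and 0 of 7 passed (0 at an unadjusted p under 0.05, and 0 by DESeq2). Pax5, the B cell transcription factor, was at -0.94 (SE 0.71, edgeR adjusted p = 0.583). T cell and Treg markers summed to 3308, 3671 and 3599 CPM in KO, against 3430, 3880 and 3832 CPM in WT, of which Il2ra was 55.2 to 61.0%. Without Il2ra they summed to 1481, 1430 and 1438 CPM in KO, against 1506, 1518 and 1514 CPM in WT, and the groups did not overlap. Ikzf2, which encodes Helios, fell (-0.57, SE 0.09, edgeR adjusted p = 0.0366), and it did not pass without KO replicate 1 (adjusted p = 0.0992). It was the 1 of 8 that passed (3 at an unadjusted p under 0.05, and 2 called lower by DESeq2).

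**Figure D5:**
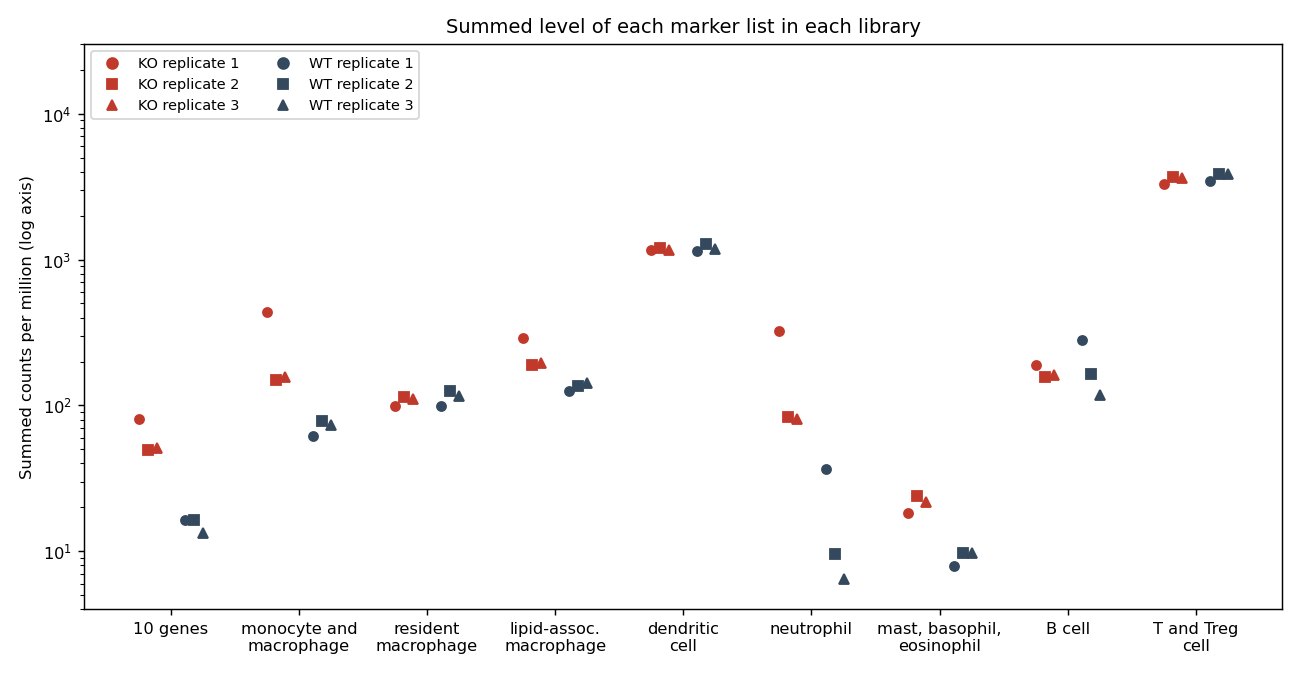
Summed CPM (log axis) of the 10 genes and of 8 marker lists in the 3 KO (red, left) and 3 WT (dark, right) libraries. The sums of the 10 genes, of monocyte and macrophage genes, of lipid-associated macrophage genes, of neutrophil genes and of mast cell, basophil and eosinophil genes do not overlap between KO and WT, whereas those of resident macrophage (mostly Stab1), dendritic (mostly Irf8), B (mostly Ighm) and T cell genes (mostly Il2ra) do.

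The genes closest to the 10 in their profile over the 6 libraries were Gpr141, Pmp22, Ugt1a7c, Sash1 and Clec7a. Likeness was the Euclidean distance of log2(CPM + 0.1), centred on each gene's mean, to the median profile of the 10, over 6 libraries that share the same cells and depth for all genes. The distances ran from 0.276 for Gpr141 to 0.421 for Clec7a, where Spp1 itself lay at 0.18, Lpl at 1.78 and Lyz2 at 2.21. Gpr141, an orphan G protein-coupled receptor, was at 0.517 ± 0.160 CPM in KO and 0.078 ± 0.032 CPM in WT, and Pmp22, a membrane protein of myelin, at 0.645 ± 0.182 CPM in KO and 0.103 ± 0.031 CPM in WT (SD, n = 3 each). The genes were picked for this pattern, so no test is given.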

How the data were processed

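Bulk mRNA libraries (SMARTER kit, per the labels' protocols) of 3 KO and 3 WT samples were analysed. The authors' deposited tables hold estimated counts per gene, with decimals for 23.5 to 25.2% of genes, and TPM, scaled by the authors to gene length and library total. The submitters' processing notes name FastQC and HISAT2. No source used here gives their versions, the genome build, the annotation, the counting program or the strand setting.

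Counts were rounded. Genes were kept by filterByExpr (12768 of 21899), scaled by TMM (factors 0.988 to 1.01) and compared in edgeR 4.0.16 by its quasi-likelihood F test (two-sided, genotype the only term), and p-values were adjusted by Benjamini-Hochberg over the whole table, with a threshold of 0.05. Standard errors were taken from the F statistic. Alternatives used DESeq2 1.42.0 and limma 3.58.1, run in R 4.3.3. Python 3.11.15 was used for the rest. 1 of 2 identifiers of Dpep2, at 0 throughout, was left out, and 4 Pira symbols were not matched. Positions, strands and transcripts came from GENCODE M21 (GRCm38), which need not be the authors' annotation.

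The 10 genes and the 18 gene lists were chosen with earlier results of these data known. Named were the 10 genes, their 2 paralogs, Lyz2, Dlst and Foxp3, up to 4 called genes of each list or else the 2 of smallest p, and the 5 nearest profiles. A result that this rule takes is not reported here. Stab1, Siglec1, Cd163, Apoe, Cx3cr1, Ccr2, Irf8, Ighm, Il2ra, Ddx3y, Tmem198b, Itgad, Gm49339, Mrc2, Lta4h, Gpnmb, Gpihbp1 and the resident markers with few counts were named after their values were seen. KO replicates 2 and 3 were the closest pair (chi-square per gene 3.56, against 15.2 to 43.7 in the other pairs). They differed more than sampling noise allows and were kept apart as the labels have them, but repeat libraries of 1 sample could differ as much, so they were also summed as an alternative.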

Additional observations from a re-analysis of the deposited data

How the results depend on the processing

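In 147 values of the 10 genes under 15 alternatives none changed sign, with log2 fold changes from 0.33 to 4.12, and 14 moved by more than the replicate SD. The constant sign follows from how the genes were picked, with every KO library above every WT library for all 10 genes. Their median of 2.13 was 1.84 to 2.26 with a replicate left out, 1.62 with limma on log2(TPM + 0.1) and 0.98 on log2(TPM + 1), a scale that understates low genes. The median log2 difference of the ratios to Lyz2, -1.21, was -1.46 to -0.78 with a replicate left out and -2.25 on log2(TPM + 1). The counts of calls were far less stable. Genes called higher (58) and lower (28) in KO numbered 3 to 56 and 1 to 40 with a replicate left out (3 and 1 without KO replicate 3), 365 and 159 by DESeq2, and 26 and 13 on log2(TPM + 1). With no low-count filter 92 were higher. Left out together, KO replicate 1 and WT replicate 1 gave 311 and 227, and KO replicates 2 and 3 summed as 1 library gave 6 and 2, with 2 of the 10 genes called, both chosen after seeing the data. List genes called higher (3) and lower (1) numbered 0 to 6 and 0 to 1 with a replicate left out (63 to 84 at an unadjusted p under 0.05 by edgeR), 47 and 2 by DESeq2, 42 and 6 without both first replicates, and 0 and 0 with the summed library, where edgeR gave 71 at an unadjusted p under 0.05. On log2(TPM + 0.1) 5 were higher and 0 lower by limma (75 at an unadjusted p under 0.05), on log2(TPM + 1) 0 were lower (73), with no low-count filter 6 were higher, and with the stricter one 1 was. The cause was not tested.

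With a replicate block 134 genes were called higher and 43 lower, and 28 list genes higher. Deviations of samples with the same number correlated at 0.184, 0.078 and 0.084, and those of samples with unlike numbers at -0.145 to 0.112. The numbers were not taken as pairs, and these values do not settle whether they are. C3ar1, Mmp19 and Mrc1, with 9, 17 and 26 WT counts in all, are limited by depth.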
